A study of Mus musculus with 6 samples.

Results

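The genes described here were 9 secreted or cytosolic defence and protease inhibitor genes of the mouse bladder lining, namely Defb1, Lcn2, Slpi, Wfdc2, Wfdc15b, Reg3g, S100a8, S100a9 and Tff1. They were picked by name and found by Ensembl identifier in the count tables, which together listed 21411 genes. Of the 9 genes, 7 were listed in all 6 tables, as were 14347 genes in all, and Lcn2 and S100a9 were listed in 4 of the 6 tables. The tables of healthy replicate 1 and of acute replicate 1 held no gene seen in only a few cells, and Lcn2 and S100a9 were not analysed there.

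The urothelium is the layered epithelium that faces urine, with basal cells beneath, intermediate cells above them and large superficial (umbrella) cells at the surface. Such a lining is known to secrete small peptides that bind or kill microbes, and inhibitors that hold the proteases of infiltrating neutrophils in check. Defb1 encodes a beta-defensin, Reg3g a lectin that binds Gram-positive bacteria, Lcn2 a lipocalin that withholds siderophore-bound iron, and S100a8 and S100a9 the subunits of calprotectin, a metal-binding protein carried mainly by neutrophils. Slpi, Wfdc2 and Wfdc15b encode proteins with the cysteine-rich whey acidic protein fold, of which Slpi inhibits neutrophil elastase. Tff1 encodes a trefoil peptide that is linked to mucosal protection and repair.

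Cells of the peeled bladder mucosa of wild type C57BL/6 mice aged 8 weeks were profiled by droplet-based single-cell RNA sequencing. The 3 conditions were untreated healthy mice, mice given cyclophosphamide (CPP) and taken at 48 hours (acute), and mice given 4 rounds of CPP over 11 days (chronic), with 2 libraries in each. Cyclophosphamide is a chemotherapy drug whose metabolites injure the urothelium through the urine. The study used several mice per condition, with males and females in each group, and called the 2 libraries biological replicates. How the mice and the sexes were divided between libraries is not given in the sources used here. The p-values thus measured only the spread between libraries, and the part of sex in the differences was not tested. The study also states that samples went through processing and sequencing in batches. Which library belonged to which batch is not given either, so the part of batch in the differences was not tested.

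The 6 tables held 56629 barcodes, and a library had 54604109 to 111985678 UMIs (unique molecules counted), with medians between 5530 and 9138 in a cell. After filtering, 50036 cells were kept, of which 37559 (75.1%) were urothelial. Libraries shared 36 to 229 barcodes with each other, at most 2.28% of the smaller library. Healthy replicate 2 stood apart in that Spink1 and Sbp, which encode a secreted protease inhibitor and a spermine-binding protein of the prostate, reached 171.8 and 119.7 CPM (UMI counts scaled to a common total per library) there and at most 0.568 CPM in the other tables that listed them. Cell classes were rebuilt here by clustering and named from marker genes, so that each name below stands for cells like that type, and the 9 genes and the other gene lists were kept out of the clustering. The summed level of 8 urothelial markers was 10945 to 16489 CPM in urothelial cells, 1148 to 7114 CPM in fibroblasts, 851.1 to 4842 CPM in myofibroblasts, 2823 to 6307 CPM in macrophages, 2019 to 8912 CPM in endothelial cells and 4630 to 8580 CPM in NK/T cells, so that their UMIs were found in every class. Macrophage markers reached 7089 to 12448 CPM in macrophages and at most 43.6 CPM in urothelial cells.

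The coding sequences of Defb1, Tff1 and Wfdc15b, 3 of the 4 genes with the most UMIs, are shown because the shared feature of these peptides is their cysteines, which pair into the disulphide bonds of the defensin, trefoil and whey acidic protein folds. Sequences were read 5′ to 3′ from the GENCODE transcripts on GRCm38, without the stop codon. Capitals mark all codons for cysteine (TGC or TGT), whether or not that cysteine lies in the fold.
Defb1: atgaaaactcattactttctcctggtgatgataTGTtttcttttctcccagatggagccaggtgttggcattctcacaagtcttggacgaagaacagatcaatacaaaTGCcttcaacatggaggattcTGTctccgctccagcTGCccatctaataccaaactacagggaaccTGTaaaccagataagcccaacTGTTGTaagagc
Tff1: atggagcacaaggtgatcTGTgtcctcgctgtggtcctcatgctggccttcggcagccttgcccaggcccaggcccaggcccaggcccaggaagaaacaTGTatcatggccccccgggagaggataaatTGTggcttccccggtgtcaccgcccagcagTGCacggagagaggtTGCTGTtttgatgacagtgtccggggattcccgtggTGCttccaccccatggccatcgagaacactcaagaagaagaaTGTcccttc
Wfdc15b: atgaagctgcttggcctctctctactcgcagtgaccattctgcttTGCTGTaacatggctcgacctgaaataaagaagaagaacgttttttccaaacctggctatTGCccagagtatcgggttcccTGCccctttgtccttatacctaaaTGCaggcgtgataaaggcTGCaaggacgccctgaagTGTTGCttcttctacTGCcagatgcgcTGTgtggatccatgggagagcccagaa

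Cysteine took 7 of the 69 codons of Defb1, 8 of 87 in Tff1, 10 of 80 in Wfdc15b and 18 of 174 in Wfdc2. In Slpi it took 17 of 131 codons, the highest share of the 9 genes, and in S100a8 it took 1 of 89 codons (1.12%), the lowest share. Wfdc15b, Slpi and Wfdc2 lay within one stretch of chromosome 2 on GRCm38 (chr2:164214454-164221660 on the minus strand, chr2:164354070-164389095 on the minus strand and chr2:164562413-164568510 on the plus strand). The gap between Wfdc15b and Slpi was 132409 bases and that between Slpi and Wfdc2 was 173317 bases. Defb1 lay at chr8:21776599-21795185 on the plus strand and Tff1 at chr17:31161395-31165277 on the minus strand.

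The genes fell into abundant, sparse and nearly absent groups. Wfdc2 gave 983220 UMIs over all kept cells, Wfdc15b 72551, Defb1 19971 and Tff1 15991. Slpi gave 2622 UMIs and Reg3g 1740, whereas S100a8 gave 257, S100a9 180 and Lcn2 32. Urothelial cells held 97.0% to 98.0% of the UMIs of Wfdc2, Wfdc15b, Defb1, Tff1 and Reg3g, and 82.8% of those of Slpi. Urothelial cells held 87.5% of the UMIs of all genes, so the share for Slpi was not above that of the average UMI. The other three genes were too sparse to carry the urothelial label: urothelial cells held 29.6% of the S100a8 UMIs, 15.6% of the Lcn2 UMIs and 14.4% of the S100a9 UMIs. For S100a8 and S100a9 these shares rested on 2 cells of healthy replicate 2, without which urothelial cells held 76 of 85 S100a8 UMIs and 26 of 29 S100a9 UMIs, close to the share of all UMIs.

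Levels within the urothelium were compared first, to ask in which layer each gene sits. A level here is the UMIs of a gene summed over the cells of one class in one library, scaled to CPM over the genes kept in that comparison, so that the same cells can differ slightly in CPM between comparisons. Counting was from the 3′ end of transcripts, and levels are therefore not divided by gene length. Superficial cells were 2 sub-clusters high in uroplakins and Krt20, the remaining cells were split into basal and intermediate cells by the larger of their basal and luminal marker scores, and cycling cells were set aside. Of the 29635 basal and intermediate cells, 2373 (8.01%) lay within 0.1 of the score where the split was made. Of the 9 genes, 6 had enough counts for a test (edgeR quasi-likelihood test with the library as a block, Benjamini-Hochberg adjustment over 12031 genes), and S100a8, S100a9 and Lcn2 did not.

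Defb1 and Tff1 rose from basal to intermediate cells. The Defb1 level over the 6 libraries ran from 26.9 to 55.9 CPM (median 34.6) in basal cells and from 95.6 to 171.1 CPM (median 144.9) in intermediate cells. The ranges did not overlap, and the intermediate level was 3.80-fold higher (log2 difference 1.92 ± 0.24 SE, adjusted p = 2.5e-06). Tff1 ran from 2.35 to 28.0 CPM (median 16.7) in basal cells and from 9.14 to 156.0 CPM (median 87.5) in intermediate cells. It was higher in the intermediate cells of each library, by 5.94-fold in the fit (log2 difference 2.57 ± 0.20, adjusted p = 4.6e-09). The lowest Tff1 value of all 3 layers came each time from healthy replicate 1. In superficial cells Defb1 was at 106.1 and 101.8 CPM in the healthy libraries, above the 32.2 and 36.2 CPM of their basal cells, and at 19.0 to 42.0 CPM in the injured ones. Over the 6 libraries, which mix these unlike conditions, the superficial level was 2.83-fold lower than the intermediate one (log2 difference -1.50 ± 0.23, adjusted p = 1.4e-05). Tff1 ran from 15.8 to 185.6 CPM in superficial cells, and its difference from intermediate cells (0.30 ± 0.16) did not pass the test (adjusted p = 0.12).

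Of the 6 genes, Wfdc15b alone passed the test upward at both steps. It ran from 120.9 to 194.1 CPM (median 143.0) in basal cells, 313.8 to 472.8 CPM (median 347.5) in intermediate cells and 398.8 to 619.5 CPM (median 477.3) in superficial cells. Within every library the order was basal, intermediate, superficial, with a log2 difference of 1.31 ± 0.08 for the first step (adjusted p = 6.7e-11) and 0.47 ± 0.07 for the second (adjusted p = 1.5e-05). Its neighbour Wfdc2, by far the most abundant of the genes, moved the other way at the surface. Wfdc2 ran from 3539 to 5885 CPM in basal cells, 4117 to 7195 CPM in intermediate cells and 1897 to 3913 CPM in superficial cells. The superficial level was 2.00-fold below the intermediate level (SE 0.10 on the log2 scale, adjusted p = 3.4e-08). The small rise from basal to intermediate cells (0.24 ± 0.09, adjusted p = 0.046) was lost in 9 of the 14 alternative analyses.

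Slpi and Reg3g were sparse, and both fell at the surface. Slpi ran from 5.74 to 26.5 CPM in basal cells and from 7.17 to 18.9 CPM in intermediate cells, with a log2 difference near 0 (0.01 ± 0.17). In superficial cells it ran from 1.42 to 6.90 CPM, which was 3.01-fold lower than in intermediate cells (log2 difference -1.59 ± 0.20, adjusted p = 1.4e-06). Reg3g ran from 2.92 to 15.3 CPM in basal, 5.12 to 15.0 CPM in intermediate and 1.04 to 5.32 CPM in superficial cells. Its fall at the surface was 3.61-fold (log2 difference -1.85 ± 0.22, adjusted p = 6.0e-07). For Slpi the superficial and intermediate ranges did not overlap, while for Reg3g they did. The superficial value was the lowest of the 3 layers within each library, except for Reg3g in healthy replicate 2.

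Counted together, 4 of the 6 tested genes passed in the intermediate against basal comparison, where 39.2% of all genes passed, and 5 of 6 passed in the superficial against intermediate comparison, where 53.4% passed. Superficial against basal cells gave 5 of 6, where 64.2% of all genes passed. The layers differed in a large share of all genes measured, and the counts for these genes are to be read against those backgrounds.

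**Figure D1:**
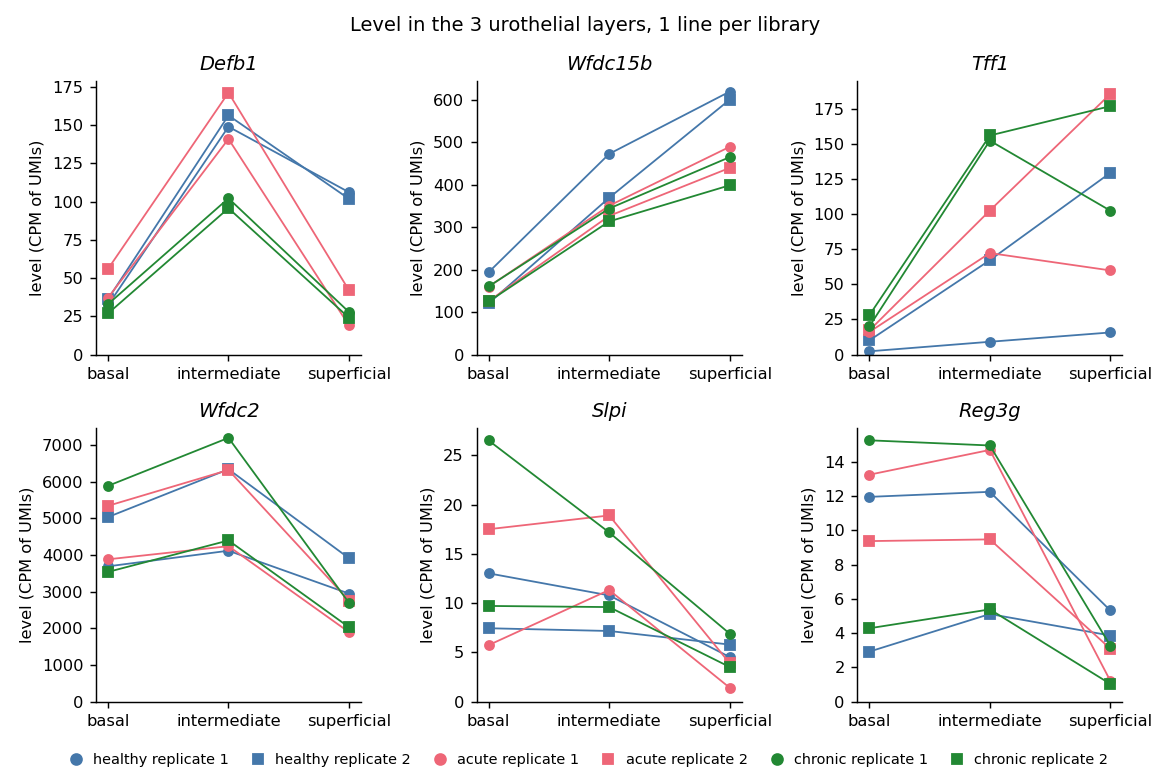
Level of 6 genes (y axis, CPM of UMIs) in basal, intermediate and superficial cells (x axis), with 1 line and marker per library coloured by condition. Defb1 peaked in intermediate cells in each library, Wfdc15b rose step by step to 398.8 to 619.5 CPM, and Wfdc2, Slpi and Reg3g were lowest in superficial cells apart from Reg3g in healthy replicate 2.

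Sub-clusters of the urothelium, found without these genes, gave a finer view, as a description. Defb1 was highest in sub-cluster 9 (median 210.9 CPM, range 104.6 to 249.4), whose leading genes included the uroplakins Upk3a and Upk2, and next in sub-clusters 12 and 4 (medians 171.2 and 165.8 CPM). It was lowest in sub-cluster 15, a cycling group (median 12.8 CPM), and in sub-cluster 13, one of the superficial pair (13.1 CPM). Wfdc2 peaked in sub-cluster 7 (median 9476 CPM, range 7640 to 9911), which Txnip, Igfbp2 and Wfdc2 itself led, and its lowest median was 1472 CPM in sub-cluster 13. The ranges of these Wfdc2 extremes were far apart. Wfdc15b was highest in sub-cluster 13 (median 527.5 CPM, range 411.5 to 757.0) and lowest in the basal-rich sub-cluster 0 (117.6 CPM). Tff1 medians were highest in sub-clusters 6 and 11 (145.4 and 134.7 CPM), but its range over libraries was wide in each, for example 20.4 to 246.3 CPM in sub-cluster 11, which Sprr2f led. For each of the 6 genes the range of the highest sub-cluster overlapped that of the next, so the order at the top was not resolved by the spread over libraries.

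**Figure D2:**
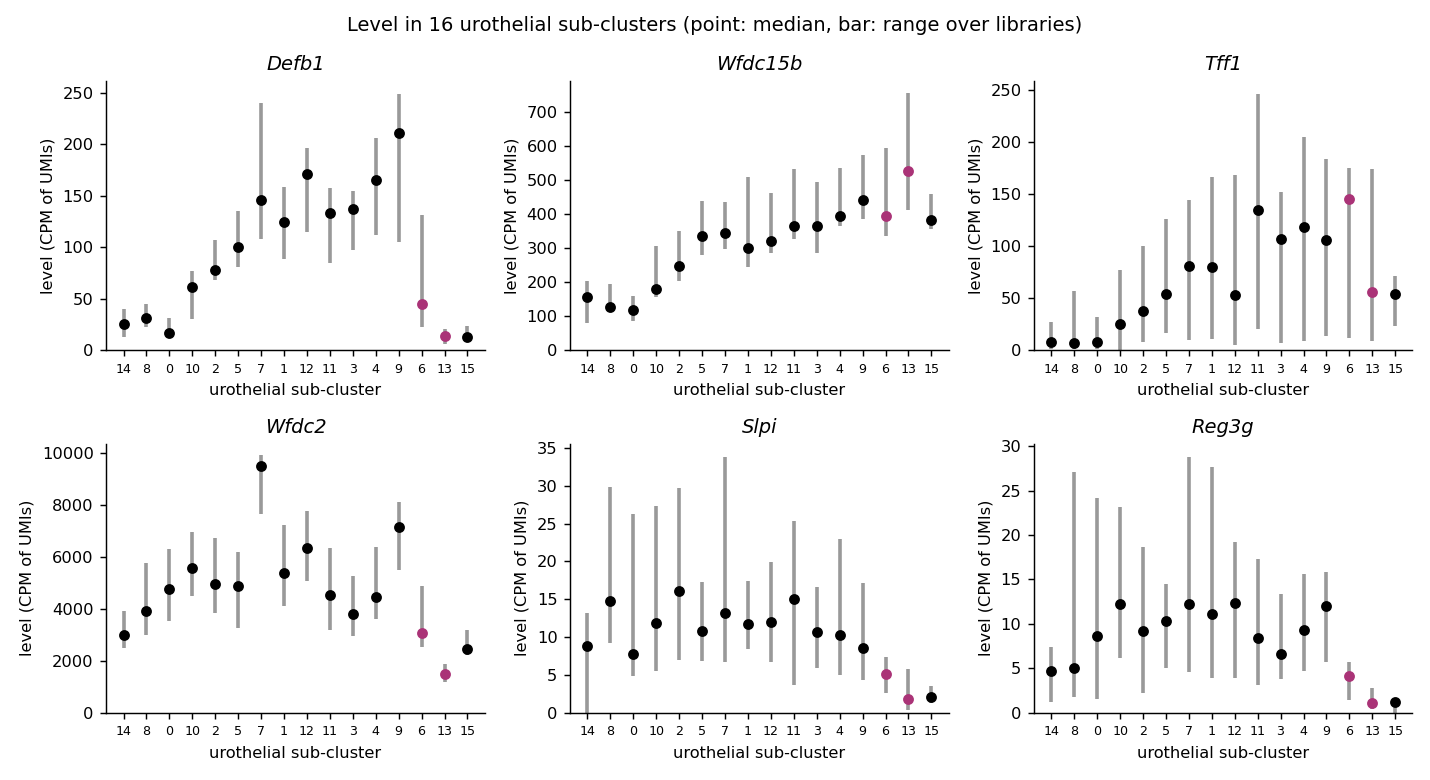
Level of 6 genes (y axis, CPM of UMIs) in 16 urothelial sub-clusters (x axis, ordered from the most to the least basal cells), with the median as a point and the range over libraries as a bar. The superficial sub-clusters 6 and 13 are coloured, and sub-cluster 13 combined the lowest median of Wfdc2 (1472 CPM) with the highest of Wfdc15b (527.5 CPM).

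Over 52 sums of all classes and libraries and 9011 genes of at least 10 CPM on average, the genes whose log2 levels ran closest to each member were named by Pearson's r, as a description. For Wfdc2 they were Ly6d (r = 0.978), Fxyd3 (0.972) and Urah (0.971), and for Wfdc15b Fmo5 (0.962), Gstm4 (0.960) and Upk3b (0.958). For Defb1 they were Fam207a (0.882), 9530034E10Rik (0.845) and Tc2n (0.835), and for Tff1 Hopx (0.866), Aldh3b2 (0.855) and Sprr2a3 (0.849). Likeness was weaker for the sparse genes, with at most 0.767 for Reg3g (Lgr4), 0.690 for Slpi (Pak1) and 0.534 for S100a8 (Gzma). The sums shared libraries and depth, and the contrast of urothelial with other cells enters each value.

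Other genes of the same kinds also differed between layers in both directions. The shares of all genes that passed, 39.2% between intermediate and basal cells and 53.4% between superficial and intermediate cells, are the background for each count given here. Of 16 other antiproteases tested, 6 were higher and 4 lower in intermediate than in basal cells, and 5 were higher and 5 lower in superficial than in intermediate cells. Cst6, a cystatin, rose at both steps (log2 differences 2.24 and 1.35), Serpinb6b rose at the surface by 2.88, and Serpinb5 fell at both steps by 0.61 and 0.38. Of the other antimicrobial genes, Ang4, an angiogenin-type ribonuclease, rose at both steps (1.83 and 2.97), while Rnase4 and Ang fell at the surface by 0.67 and 0.46. Of 3 other WFDC genes tested, Wfdc10 rose at the surface by 2.82 and the other two did not pass.

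Among 12 other S100 genes, 6 were higher and 1 lower in intermediate than in basal cells, and 5 rose and 4 fell at the surface. S100a1 and S100a13 rose there by 2.58 and 1.51, and S100a16 and S100a4 fell by 0.36 and 0.39. Sensors and inducers of such defence genes, among them receptors and transcription factors, changed in both directions: 10 of 23 fell and 4 rose from basal to intermediate cells, and 14 fell and 4 rose at the surface. Tlr2, a receptor for bacterial lipoproteins, rose at both steps (1.30 and 0.95), whereas Cebpb, a transcription factor, fell at both (by 1.01 and 1.29). These counts too stand beside 39.2% and 53.4% of all genes. The median log2 difference of the sensors and inducers was -0.15 and -0.36 at the 2 steps, against -0.0029 and -0.021 over all genes tested. All genes named from these lists passed the test in the comparison given.

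The next question was whether injury changed the genes in the urothelium as a whole. Of the 7 genes tested, including S100a8, none passed in the acute or the chronic comparison with healthy mice, nor between acute and chronic (edgeR quasi-likelihood test over 13866 genes). The test passed few genes of any kind: 2 genes (0.0144%) for acute, 0 for chronic and 0 between the injured conditions, although 892, 992 and 929 genes (6.43%, 7.15% and 6.7%) had an unadjusted p under 0.05. DESeq2 passed 274, 113 and 94 genes and none of the 7.

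Tff1 gave 8.84 and 59.4 CPM in the healthy libraries, 43.4 and 91.1 CPM in the acute and 130.4 and 136.6 CPM in the chronic libraries. Both chronic values lay above all others, but the healthy libraries differed so much from each other that the chronic log2 difference of 1.97 ± 0.78 had an adjusted p of 0.68 (unadjusted p = 0.039). The size depended on both healthy libraries: without healthy replicate 1 the difference was 1.17, and without healthy replicate 2 it was 3.92. Defb1 gave 121.0 and 121.6 CPM in the healthy, 67.0 and 106.7 CPM in the acute and 82.6 and 68.0 CPM in the chronic libraries. All 4 injured values lay below the healthy pair, with log2 differences of -0.48 ± 0.26 (adjusted p = 0.91) for acute and -0.69 ± 0.26 (adjusted p = 0.67, unadjusted p = 0.031) for chronic. Values of 2 against 2 libraries fail to overlap in 33.3% of cases by chance alone. This applies to each such pattern here and below, and the share of all genes showing it is not given. The sums over all urothelial cells held cycling cells too. They were 292 of 5533 and 418 of 6742 cells in the healthy libraries. In the acute ones they were 1582 of 5799 and 824 of 6073, and in the chronic 969 of 8657 and 409 of 4755. Their Defb1 was at 37.2 and 64.8 CPM (healthy), 18.3 and 29.9 CPM (acute) and 55.2 and 36.8 CPM (chronic). The part of cell make-up in the differences was not tested.

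Neither WFDC gene passed. Wfdc2 gave 3848 and 5803 CPM in the healthy, 3355 and 5018 CPM in the acute and 6205 and 3721 CPM in the chronic libraries, so the ranges of the conditions overlapped. By library, healthy replicate 1, acute replicate 1 and chronic replicate 2 (3355 to 3848 CPM) lay below the others (5018 to 6205 CPM). Basal cells (3539 to 3883 against 5035 to 5885 CPM) and intermediate cells (4117 to 4398 against 6319 to 7195 CPM) split likewise, while superficial cells overlapped. The cause of this split was not tested. Wfdc15b gave 447.3 and 333.2 CPM in the healthy, 319.7 and 301.5 CPM in the acute and 354.6 and 304.1 CPM in the chronic libraries. Its log2 differences were -0.33 ± 0.21 for acute and -0.24 ± 0.21 for chronic. Both acute Wfdc15b values lay below both healthy ones, and the chronic values overlapped them. Slpi (7.07 to 14.9 CPM) and Reg3g (4.07 to 12.45 CPM) overlapped between all conditions. S100a8 was at 0.0536 to 0.648 CPM in the 6 libraries, a level of a few UMIs, and in the 4 tables that listed it S100a9 was found in 0.0329% to 0.21% of urothelial cells.

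**Figure D3:**
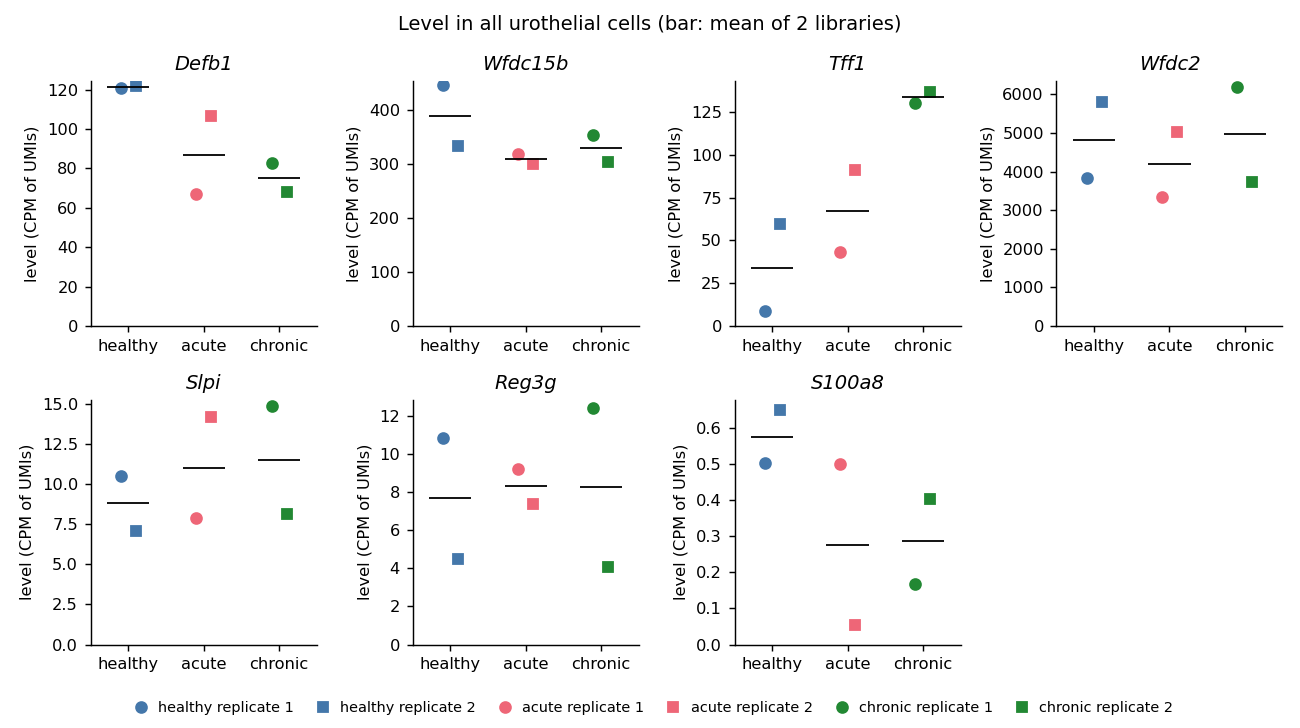
Level of 7 genes in all urothelial cells (y axis, CPM of UMIs) by condition (x axis), with 1 marker per library and a bar at the mean of the 2 libraries. Tff1 was highest in the chronic libraries (130.4 and 136.6 CPM) and Defb1 highest in the healthy ones (121.0 and 121.6 CPM), and neither difference passed the test.

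Within single layers, none of 57 tests of these genes passed with edgeR, and 9 had an unadjusted p under 0.05. The share of all genes with such a p for acute, for chronic and between the injured conditions was 2.48%, 4.85% and 2.92% in basal cells and 2.31%, 4.69% and 3.95% in intermediate cells. In superficial cells it was 4.31% between the injured conditions. Among the 9 were the acute and the chronic difference of Defb1 in superficial cells. The Defb1 level there was 106.1 and 101.8 CPM in the healthy, 19.0 and 42.0 CPM in the acute and 27.8 and 24.1 CPM in the chronic libraries. Every injured value was below both healthy values, by 3.35-fold for acute (log2 difference -1.75 ± 0.34, unadjusted p = 0.00077, adjusted p = 0.32) and 4.00-fold for chronic (SE 0.35 on the log2 scale, unadjusted p = 0.00033, adjusted p = 0.16). No gene of the 11223 tested passed in either comparison, with 785 and 1068 (6.99% and 9.52%) at an unadjusted p under 0.05. DESeq2 passed Defb1 in both (adjusted p = 0.0035 and 0.0002), together with 35 and 75 genes in all.

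Wfdc15b showed a like order at smaller size. Its superficial level was 619.5 and 600.5 CPM in the healthy, 489.5 and 439.8 CPM in the acute and 465.1 and 398.8 CPM in the chronic libraries, and in intermediate cells the healthy pair (472.8 and 369.4 CPM) also lay above all 4 injured values (313.8 to 350.8 CPM). No test of these differences passed, with log2 differences of -0.39 ± 0.19 and -0.50 ± 0.19 in superficial cells (adjusted p = 0.78 and 0.48). With so few libraries, ranges that stand apart are no sign of a change by themselves.

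In intermediate cells the Defb1 values of healthy and acute libraries overlapped, with 148.9 and 156.3 CPM in the healthy, 140.9 and 171.1 CPM in the acute and 102.1 and 95.6 CPM in the chronic libraries. A test of the difference itself, injury by layer, asked whether the superficial change differed from the intermediate one. It passed for Defb1 after acute injury (log2 difference of differences -1.84 ± 0.19, adjusted p = 6.9e-05) and after chronic injury (-1.38 ± 0.19, adjusted p = 0.0039). Wfdc2 also passed, at -0.59 ± 0.14 (adjusted p = 0.044) and -0.67 ± 0.14 (adjusted p = 0.025). Thus 2 of 6 genes passed in each of these comparisons, where 1.1% and 0.792% of all genes passed, and no gene of the 6 passed between intermediate and basal cells, where 0% did.

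The superficial levels of Wfdc2 behind that call were 2948 and 3913 CPM in the healthy, 1897 and 2758 CPM in the acute and 2695 and 2032 CPM in the chronic libraries. All 4 injured values were lower than both healthy ones, although by little for acute replicate 2 and chronic replicate 1. The other four genes did not pass. For Slpi the acute difference between layers was -1.62 ± 0.43 (adjusted p = 0.082) and the chronic one -0.48 ± 0.39. For Tff1 the chronic value was -1.09 ± 0.31 (adjusted p = 0.12), and for Reg3g the values were -1.39 ± 0.49 and -1.24 ± 0.51 (adjusted p = 0.21 and 0.34). Those of Wfdc15b were -0.10 ± 0.16 and -0.16 ± 0.16.

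How the superficial cells were defined bore on this result. When the libraries were clustered without integration, 331 of the 489 superficial cells of healthy replicate 1 (67.7%) and 265 of the 425 of healthy replicate 2 (62.4%) were assigned to the intermediate cells, compared with 6.61% to 7.96% in the injured libraries. Under that clustering Defb1 in superficial cells was 99.8 and 28.2 CPM in the healthy, 15.4 and 37.7 CPM in the acute and 22.4 and 19.1 CPM in the chronic libraries, so that healthy replicate 2 fell among the injured values. None of the 24 injury by layer tests then passed (Defb1 -1.44, adjusted p = 0.54, and -1.12, adjusted p = 0.85).

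The superficial pair of sub-clusters also differed in make-up between conditions. Sub-cluster 13 took 10.4% and 30.4% of the superficial cells in the healthy libraries and 31.6% to 56.9% in the injured ones, and Defb1 was low in it throughout (5.81 to 20.9 CPM). Within sub-cluster 6 alone, Defb1 was at 117.0 and 131.2 CPM in the healthy, 22.6 and 49.8 CPM in the acute and 39.4 and 36.9 CPM in the chronic libraries. With superficial cells limited to sub-cluster 6, an alternative chosen after seeing the data, Defb1 still passed (-1.64, adjusted p = 7.3e-05, and -1.01, adjusted p = 0.035) and Wfdc2 did not (adjusted p = 0.063 and 0.19). This limit left out sub-cluster 13, where the healthy Defb1 values (11.1 and 20.9 CPM) overlapped the injured ones. The healthy cells of sub-cluster 6 had less of the superficial marker Psca (3754 and 7044 CPM) than the injured ones (8740 to 12675 CPM). Acer2 (365 and 540 against 815 to 1070 CPM) and Fam25c (2894 and 3256 against 6205 to 8629 CPM) were also lower there. Krt5, a basal marker, was higher (227 and 267 against 112 to 162 CPM), and Upk2 overlapped. The part of these differences in the Defb1 result was not tested.

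A definition that used no clusters gave the same order, but its healthy cells lay near intermediate cells in Defb1 and Wfdc2. Among non-cycling urothelial cells, the 5% highest in superficial markers held Defb1 at 137.4 and 145.5 CPM in the healthy, 39.9 and 48.6 CPM in the acute and 26.4 and 24.6 CPM in the chronic libraries. Each injured value lay below both healthy ones. The 5% was fixed, whatever share of a library was superficial. Wfdc2 in these cells was at 4484 and 5482 CPM in the healthy and 2458 to 3722 CPM in the injured libraries. That was above the superficial cells of the integrated data (2948 and 3913 CPM, and 1897 to 2758 CPM). Healthy intermediate cells held 4117 and 6339 CPM of Wfdc2 and 148.9 and 156.3 CPM of Defb1, near the healthy values of the 5%. Injured intermediate cells held 4241 to 7195 CPM of Wfdc2, above the injured values of the 5%. How many intermediate cells the 5% took in was not tested. No test was run on these 5%. In the injury by layer test on superficial cells of the integrated data, the chronic Defb1 call rested on both chronic libraries. It was lost without chronic replicate 1 or chronic replicate 2. The Wfdc2 calls of that test were less stable. The acute one was lost without any single healthy or acute library (adjusted p = 0.068 to 0.50), and the chronic one without healthy replicate 1, acute replicate 2 or either chronic library (adjusted p = 0.059 to 0.55).

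**Figure D4:**
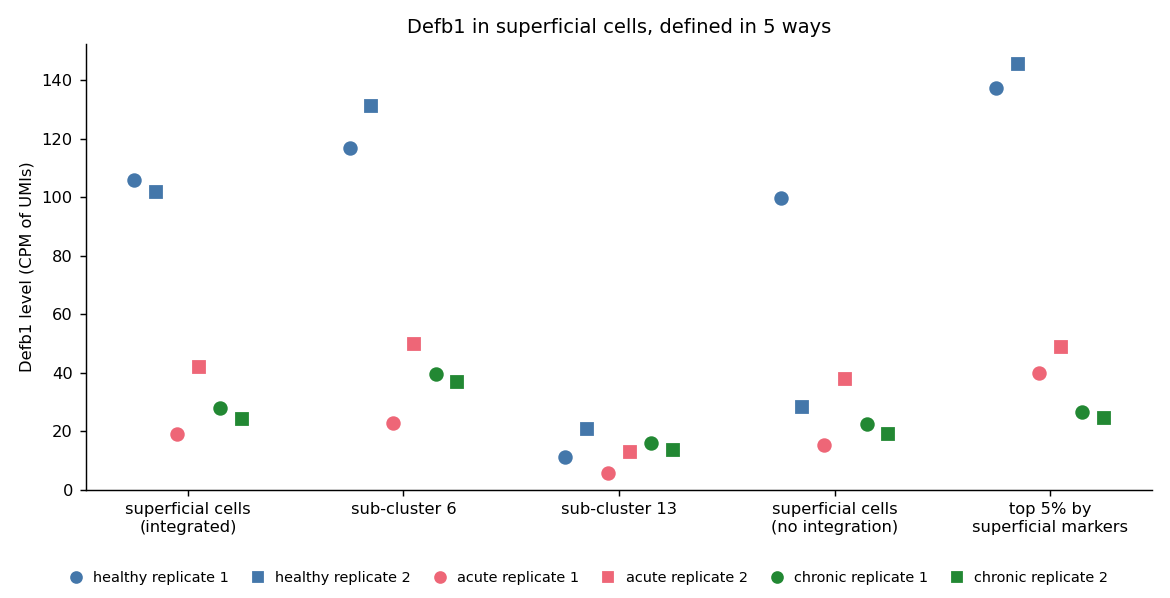
Defb1 level (y axis, CPM of UMIs) in superficial cells defined in 5 ways (x axis), with 1 marker per library. The healthy libraries stand above the 4 injured ones in superficial cells of the integrated data, in sub-cluster 6 and among the top 5% of cells by superficial markers, but not in sub-cluster 13, nor for healthy replicate 2 without integration.

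Shares of cells were compared at equal depth. Defb1 was detected in 53.8% (95% Wilson interval 49.4 to 58.2) and 38.8% (34.3 to 43.5) of superficial cells in the healthy libraries and in 12.0% to 21.7% in the injured ones. After each cell was thinned to 2000 UMIs, the shares were 9.41% and 9.18% in the healthy, 1.86% and 4.56% in the acute and 3.63% and 2.33% in the chronic libraries. Thinning left out 0 to 54 cells a library. Healthy and injured shares did not overlap, but 2 against 2 libraries cannot give an exact two-sided permutation p below 0.333, which is the value obtained for both comparisons. Intervals cover counting error only. For comparison, in fibroblasts, which should lack the gene, 1.45% to 5.10% of cells held Defb1 at that depth (median 2522 to 5468 UMIs per cell before thinning, against 9934 to 21228 in superficial cells). The part of free RNA in the superficial shares was not tested. By level, superficial Defb1 in the injured libraries (19.0, 42.0, 27.8 and 24.1 CPM) was above that of fibroblasts in 3 of 4 (9.88, 13.9, 12.3 and 66.9 CPM).

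Few genes of the other lists passed the injury by layer test, where 1.1% of all genes did for acute injury. S100a14 was higher after acute injury in superficial relative to intermediate cells (0.80 ± 0.14, adjusted p = 0.0065). Relb and Il6ra, an NF-kappaB subunit and the interleukin-6 receptor, were lower (-1.20 and -1.48, adjusted p = 0.017 and 0.027). No gene of the other antimicrobial, WFDC, antiprotease or receptor lists passed, and none of any list passed after chronic injury. Without integration no gene of any kind passed the acute comparison, so these 3 calls were lost there, and only 3 genes in all passed without acute replicate 1.

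The genes were next compared between urothelial cells and the other classes, in 25 tests with the library as a block over 10133 genes. Wfdc2, Wfdc15b, Tff1 and Defb1 were each higher in urothelial cells than in fibroblasts, myofibroblasts, macrophages and endothelial cells. Defb1 was at 67.3 to 125.7 CPM in urothelial cells and at 9.88 to 17.2 CPM in the fibroblasts of 5 libraries, with 66.9 CPM in the 98 fibroblasts of chronic replicate 2. The fitted fold against fibroblasts was 5.95 for Defb1, 5.66 for Wfdc2, 5.25 for Wfdc15b and 6.19 for Tff1 (adjusted p = 5.1e-09, 1.5e-09, 2.1e-09 and 5.4e-09). Against endothelial cells the folds were 3.23 to 6.02. Against NK/T cells, of which only 3 libraries had enough, Wfdc15b and Tff1 passed, with log2 differences of 1.13 ± 0.36 and 2.23 ± 0.68.

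In all, 20 of the 25 tests passed. The share of all genes that passed was 67.4% for fibroblasts, 67.5% for myofibroblasts, 56.6% for macrophages, 45.1% for endothelial cells and 15.9% for NK/T cells. The counts for these genes are to be read against those shares.

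Background outside the urothelium was gauged in the same libraries, since RNA free in the droplets gives UMIs in cells that do not express a gene. The 7 genes of the urothelium that other classes should lack (Upk1a, Upk1b, Upk2, Upk3a, Krt7, Krt18 and Krt19) were at a median of 20.5% of their urothelial level in fibroblasts, 16.7% in myofibroblasts and 26.2% in macrophages. The level of Wfdc2, set over that of these genes in the same library, had a median ratio of 0.90, 0.98 and 0.88, and that of Wfdc15b 1.02, 1.03 and 0.90. For Defb1 the ratios were 0.95, 0.80 and 0.93. In endothelial cells the medians were 1.06, 1.12 and 1.11 for Wfdc2, Wfdc15b and Defb1, with Wfdc2 and Wfdc15b above the reference in 4 of 5 libraries. Single libraries reached 2.02 for Defb1 in fibroblasts and 1.98 for Wfdc2 in macrophages. The Tff1 medians were 0.82, 0.41 and 0.50 in fibroblasts, myofibroblasts and macrophages. Reg3g had a median of 1.68 and a highest ratio of 3.50 in myofibroblasts and reached 2.51 in fibroblasts, and Slpi reached 20.7 in the fibroblasts of chronic replicate 2. Whether these classes express the genes was not tested. In macrophages Slpi was above these genes in 6 of 6 libraries, by a median of 3.19 times. The injured libraries had only 4.41 to 10.3 CPM there. Urothelial cells held 301 of the 305 Slpi UMIs of acute replicate 1, so such values rested on few UMIs. The healthy values rested mostly on single cells with many Slpi UMIs, named below.

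**Figure D5:**
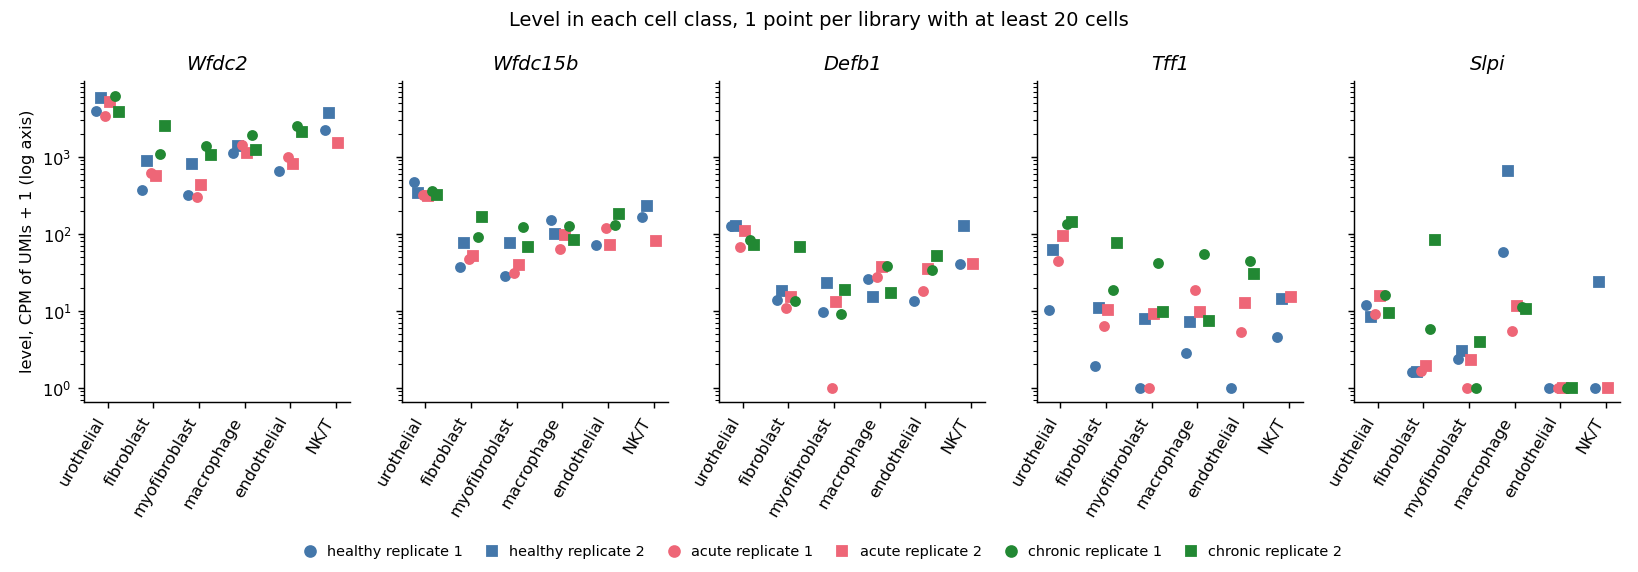
Level of 5 genes (y axis, CPM of UMIs plus 1, log axis) in 6 cell classes (x axis), with 1 marker per library that had at least 20 cells of the class. Wfdc2, Wfdc15b, Defb1 and Tff1 were highest in the urothelial cells of each library apart from Defb1 in healthy replicate 2. There NK/T cells gave 124.9 against 123.3 CPM in urothelial cells. Within each of the healthy libraries Slpi was highest in macrophages (57.1 and 648.1 CPM).

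Of the 5 genes tested between classes, Slpi was the one higher in another class. It was at 7.17 to 15.0 CPM in urothelial cells, whereas macrophages gave 57.1 and 648.1 CPM in the healthy, 4.41 and 10.3 CPM in the acute and 10.1 and 9.46 CPM in the chronic libraries. The macrophage level was 6.15-fold higher in the fit (log2 difference of urothelial against macrophage -2.62 ± 0.84, adjusted p = 0.010). Few cells made this difference. In healthy replicate 2, a macrophage with 220 Slpi UMIs and another with 94 held most of the signal, and in healthy replicate 1 a single macrophage held 32. The call was lost without healthy replicate 2 (-0.60, adjusted p = 0.57) and with DESeq2 (adjusted p = 0.21). These 3 cells carried 145, 283 and 195 UMIs of Lyz2, the lysozyme of myeloid cells. The cells with 220 and 94 Slpi UMIs carried 14 and 7 UMIs of the macrophage marker C1qa, and 1 of 9 neutrophil markers each. The cell with 32 Slpi UMIs carried 0 UMIs of C1qa and 4 of the 9 neutrophil markers. No UMI of Slpi was found in the endothelial cells of the 5 libraries with at least 20 such cells.

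The acute against healthy difference of Slpi in macrophages was -5.38 ± 1.09 and the chronic one -5.09 ± 1.09, with unadjusted p of 0.0005 and 0.00077 and adjusted p of 0.47 for each. No gene of the 6168 tested passed there. The healthy values behind these differences (57.1 and 648.1 CPM) rested mostly on the macrophages with 32, 220 and 94 Slpi UMIs. Slpi also stood out in the fibroblasts of chronic replicate 2, at 81.8 CPM against 0.60 to 4.70 CPM in the other libraries. A single cell with 31 Slpi UMIs made this value, and it also carried 20 UMIs of Msln, which encodes mesothelin, a marker of mesothelium.

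Calprotectin genes were sparse, with S100a8 found in 85 cells and S100a9 in 30, and their high counts sat in 2 cells. S100a8 gave 194 of its 257 UMIs in healthy replicate 2, and 172 of these came from 2 cells that the clustering had placed among NK/T cells. They held 106 and 66 UMIs of S100a8 and 84 and 67 of S100a9. The pair carried 3 and 4 of 9 neutrophil markers, among them Csf3r and Retnlg in both, while 0 markers were found in the cells that ranked next for S100a8. Lcn2 gave 32 UMIs in 17 cells, and its highest count, 11, was in an endothelial cell of chronic replicate 1.

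In NK/T cells the acute library was compared with the healthy pair, in a fit that assumes that the lone acute library varies like the others. Of the 4 genes tested, 2 passed, S100a8 and Wfdc15b, both lower in acute cells (adjusted p = 1.1e-17 and 0.043), where 7.38% of all genes passed. S100a8 was listed at 0 in the acute NK/T cells and in those of healthy replicate 1, so its call rested on the 2 cells named above, and without them none of the 4 genes passed. The acute cells had a median of 2001 UMIs against 7855 and 6460 in the healthy ones, and Wfdc15b in NK/T cells was at 0.71 to 0.99 times the urothelial reference genes. No change in NK/T cells is read from these calls. In the fibroblasts, myofibroblasts, macrophages and endothelial cells no test of these genes passed. Few genes of any kind did there: 0.00878% for acute and for chronic fibroblasts, 0.0115% for acute myofibroblasts, 0.0929% and 0.13% for acute and chronic endothelial cells, and 0% in the other comparisons. The higher values of Wfdc2 in chronic endothelial cells (2486 and 2088 CPM against 648.5 CPM in the healthy and 981.4 and 805.6 CPM in the acute libraries) had an adjusted p of 0.15 and rested on 1 healthy library and on 27 and 25 chronic cells. The 7 urothelial reference genes moved with them, at 47.1% and 65.6% of their urothelial level in the chronic, 14.3% in the healthy and 32.2% and 23.8% in the acute endothelial cells, and Wfdc2 was at 0.67 to 1.25 times these genes. Their part in the result was not tested.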

How the data were processed

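The authors sequenced cells on the Chromium 3′ droplet platform and, per the submitters' processing notes, used Cell Ranger and the mm10 genome build. The deposited values are unnormalised UMI counts, with genes as lines and cells as columns, in 6 tables. The last line of the healthy replicate 1 table was incomplete and was dropped. Barcodes with more than 500 genes and under 10% mitochondrial counts were kept, and likely doublets were removed by Scrublet scores. Libraries were normalised and integrated on 3000 features (sctransform 0.4.2, Seurat 5.3.0) from the 14347 genes listed in all 6 tables, without 85 genes of the lists described, and clustered with leidenalg 0.10.2 at resolution 0.8 through scanpy 1.11.5. Clusters were named by markers, where a marker counted at 25% or more of its highest cluster, a rule set after the clusters were seen.

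UMI counts were summed per class and library where at least 20 cells were present and tested with edgeR 4.0.16 (quasi-likelihood, TMM, filterByExpr), with Benjamini-Hochberg adjustment over all genes and a threshold of 0.05. The library entered as a block where layers or classes were compared. DESeq2 1.42.0, its size factors in edgeR, no filter on low counts, a stricter cell filter, doublets kept, no integration, genes not listed in a table set to 0, and each library left out were tried as alternatives. Superficial sub-cluster 6 alone and removal of cells with at least 30 UMIs of Slpi or S100a8 were added after seeing the data. On simulated counts, 70% of 200 genes changed 4-fold were recovered for acute injury in all urothelial cells (13737 genes) and 99% between layers (11716 genes). In these, 13 and 17 unchanged genes were also called. Changes under 4-fold were not simulated.

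All 9 genes were reported whatever their values, and from the other lists at most 2 genes per direction and comparison with the smallest adjusted p. Members and lists were chosen with earlier results of these data known.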

Additional observations from a re-analysis of the deposited data

Results flagged for a closer look

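In superficial relative to intermediate cells, the response to injury differed for 2 of the genes by the test of the difference itself (edgeR quasi-likelihood, Benjamini-Hochberg adjustment over 12246 genes). Of all genes, 1.1% passed for acute and 0.792% for chronic injury. For Defb1 the difference of log2 changes was -1.84 after acute and -1.38 after chronic injury. For Wfdc2 it was -0.592 after acute and -0.674 after chronic injury. None of these passed when the libraries were clustered without integration.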

How the results depend on the processing

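Of the counts of these genes that passed, those in all urothelial cells (0 in each comparison) did not change under any alternative, and the count of 14 between layers ran from 13 to 15 and that of 20 between classes from 17 to 23 with 1 library left out. Within single layers DESeq2 passed 2 tests, both of Defb1 in superficial cells, in place of 0. Of the 4 injury by layer tests that passed, 0 did so without integration, 2 with sub-cluster 6 alone, and 2 to 3 with 1 library left out, where the count of passing tests was 2 to 4 because other tests newly passed. For injury in the other classes, 2 tests passed, against 5 with DESeq2, 4 with no filter on low counts, 1 each with the stricter cell filter, doublets kept or no integration, 0 without the cells high in Slpi or S100a8, and 0 to 3 with 1 library left out. The drop in the share of superficial cells with Defb1 was 6.08 (acute) and 6.31 (chronic) percentage points at 2000 UMIs, and the differences were -10.9 and -10.7 points at 4000 UMIs and -29.4 and -31.3 points without thinning. They were -7.43 to -4.73 and -6.96 to -5.66 points with 1 library left out. The Defb1 difference between acute and chronic urothelium was -0.19 without acute replicate 2 (adjusted p = 0.93) and 0.50 without acute replicate 1. The cause was not tested for the changes named here.

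Over all genes, acute injury in urothelial cells gave 2 calls, against 0 to 274 under other settings, and chronic injury 0 against 0 to 113. The superficial against intermediate injury differences gave 135 and 97 calls, against 0 to 345 and 1 to 286, and 3 to 182 and 0 to 164 with 1 library left out. NK/T cells gave 374 calls for injury, against 26 to 434, and 1611 against urothelial cells, against 881 to 2099. With 1 library left out the latter ran from 503 to 2150. Within layers and in the other classes the counts of 0 to 7 reached at most 122.

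Deviations of same-numbered libraries correlated at 0.318 between healthy and acute, -0.437 between healthy and chronic and -0.270 between acute and chronic. The numbers thus did not pair the libraries over all conditions. By sign, chronic replicate 2 went with replicate 1 of the healthy and acute conditions, and chronic replicate 1 with replicate 2. Whether these sets reflect batches was not tested. Batches were not known per library, and no block by batch was fitted. With the replicate number as a block, 0 of these genes passed in any injury comparison, the chronic Tff1 difference was 2.47 and that of Defb1 -0.68, and the 2 genes called after acute injury became 0. Since the chronic libraries deviated the other way by number, that block cannot show what another pairing would give.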
